A study of Mus musculus with 3 samples.

Results

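The Adamts genes encode secreted zinc metalloproteases that cut matrix proteins. Transcripts of 10 of them (Adamts1, 2, 4, 5, 6, 7, 9, 10, 12 and 15) were followed in cultured tendon cells with and without the ΔF508 mutation of Cftr, the anion channel gene altered in cystic fibrosis. They were chosen by name, as the aggrecanases, the procollagen protease and their relatives, and were matched by Entrez gene ID. All 10 were found among 16621 genes listed in any library, and all 10 passed the filter on low counts that left 12888 genes for testing. The cells, progenitors grown out of tail tendon of C57BL/6 mice and called tail tendon derived stem cells, were collected at passage 4 without treatment. The study's text gives the mice as 10 weeks old. Poly(A) RNA was sequenced in 3 libraries, 1 of wild-type cells (WT) and 2 of cells carrying CFTRΔF508 (DF508 replicates 1 and 2). No other allele, transgene or agent is named for either group. The labels do not say whether animals were pooled or whether the DF508 libraries are separate cultures. The p-values rest on the spread between the 2 DF508 libraries, which could be purely technical, and on a spread shared across genes. WT, with 1 library, adds no spread of its own.

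Most Adamts proteases are made as inactive precursors that are cut by furin-type convertases. They act outside the cell, where Timp3 is the main tissue inhibitor of the aggrecanases among them. Adamts1, Adamts4, Adamts5, Adamts9 and Adamts15 belong to the group that cuts aggrecan and versican, the large proteoglycans that hold water in cartilage and tendon, and Adamts4 and Adamts5 are the aggrecanases best known from joint disease. Adamts2 removes the amino propeptide of fibrillar procollagens, a step that lets collagen pack into fibrils. Adamts7 and Adamts12 form a pair known for cutting cartilage oligomeric matrix protein (Comp), and Adamts6 and Adamts10 form a pair linked to fibrillin microfibrils.

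The zinc-binding site is shown first because it is what makes these proteins proteases, and because it divides the genes in a way that their expression can be set against. The coding bases of the site, 36 bases or 12 codons in each gene, were read from GENCODE M21 transcripts (GRCm38) and are written from 5′ to 3′. Capitals mark the histidine codons that hold the zinc and, between the second and the last of them, the eighth codon of the site.
Adamts1: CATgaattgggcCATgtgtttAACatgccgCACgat
Adamts4: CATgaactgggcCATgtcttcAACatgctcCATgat
Adamts9: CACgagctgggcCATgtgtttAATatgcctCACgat
Adamts15: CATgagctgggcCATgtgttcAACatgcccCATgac
Adamts5: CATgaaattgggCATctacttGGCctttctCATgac
Adamts2: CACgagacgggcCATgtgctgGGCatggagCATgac
Adamts7: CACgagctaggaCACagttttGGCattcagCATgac
Adamts12: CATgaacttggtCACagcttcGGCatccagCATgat
Adamts6: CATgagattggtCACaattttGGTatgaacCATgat
Adamts10: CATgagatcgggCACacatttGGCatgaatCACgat
The eighth codon was aac or aat in Adamts1, Adamts4, Adamts9 and Adamts15, and ggc or ggt in the other members, Adamts5 among them. Adamts4 and Adamts15 were identical at 32 of 36 bases, the closest of 45 pairs. Adamts5 had 20 to 24 bases in common with any other member, and 22 with Adamts1, its neighbour in the genome. Across whole transcripts 1 of the 45 pairs, Adamts4 and Adamts9, had any 31-base word in common. For Adamts9 the words came from its transcript with 1350 codons, described below. The site shown comes from another, with 1931 codons. Of the 10 members, Adamts2 alone had an estimated count that was not whole and thus shares reads with another gene or copy, so its values are uncertain.

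The gene models behind the counts matter for some members. The transcript with the accession that the deposited tables use for Adamts9 had no zinc site in its longest open reading frame, of 1350 codons, and the site above comes from a longer transcript of the gene with 1931 codons. The tables gave Adamts5 a length of 8104 bases where the GENCODE transcript has 10791, and Adamts12 a length of 6234 where it has 8579. FPKM, the fragments per gene scaled for gene length and library depth, depends on these lengths, so the order of levels between genes holds for these gene models.

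Adamts5 had the highest level of the 10 members in each library. Its FPKM was 74.81 in WT, 45.91 in DF508 replicate 1 and 32.3 in DF508 replicate 2, which placed it at rank 770 of 15346, 1372 of 15444 and 2055 of 15474 genes with an FPKM above 0. Adamts1 came next, with 41.01, 28.25 and 21.96 FPKM. The procollagen protease Adamts2 had 22.89, 18.4 and 18.71 FPKM, and the microfibril-linked Adamts10 had 13.14, 14.22 and 15.76 FPKM. Adamts12 ranged from 5.16 to 9.26, Adamts4 from 3.46 to 5.02, Adamts7 from 3.14 to 5.04, Adamts6 from 3.18 to 3.81 and Adamts9 from 1.39 to 2.68 FPKM. Adamts15 was near the limit of detection, with 0.25, 0.19 and 0.32 FPKM from 8, 6 and 10 counts. In this order by mean, the ranges over the 3 libraries overlapped between Adamts5 and Adamts1, Adamts1 and Adamts2, Adamts4 and Adamts7, and Adamts7 and Adamts6. These ranges span both genotypes, and within each library Adamts5 was above Adamts1 and Adamts1 above Adamts2. Adamts4 and Adamts7, and Adamts7 and Adamts6, changed order between libraries and are not ordered beyond their spread. The aggrecanase Adamts4 thus stood far below Adamts5, with an FPKM ratio of Adamts5 to Adamts4 of 17.6 in WT, and of 9.15 and 9.34 in the DF508 libraries.

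**Figure D1:**
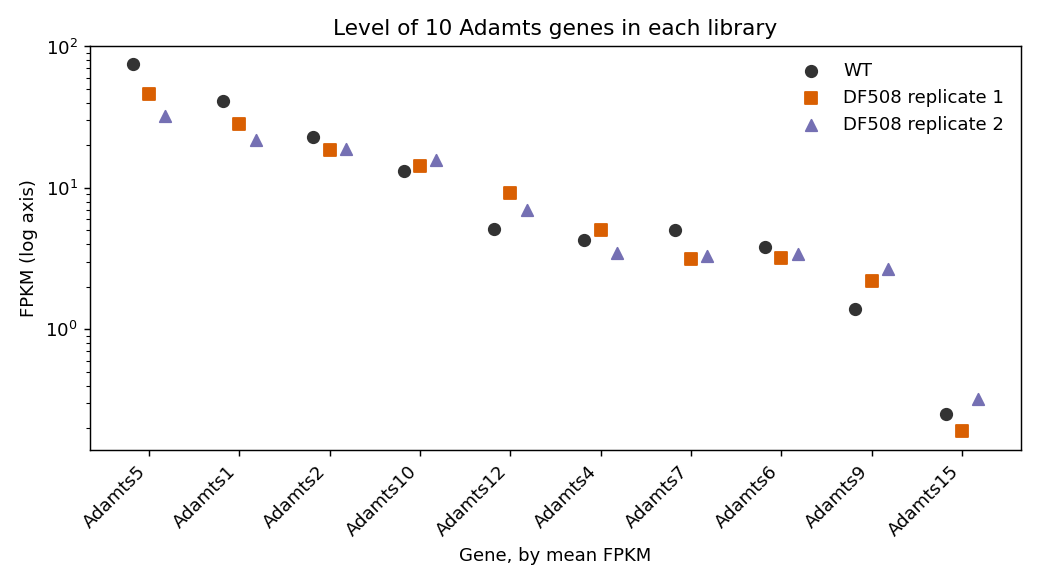
FPKM of each Adamts gene (horizontal axis, by mean level) on a log axis, with one point for WT and one for each DF508 library. Adamts5 runs from 74.81 in WT to 32.3 in DF508 replicate 2 and Adamts1 from 41.01 to 21.96, while Adamts15 lies between 0.19 and 0.32.

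DF508 libraries were set against WT to see which Adamts transcripts differ between mutant and wild-type tendon cells. Adamts5 and Adamts1, the most abundant members, fell in DF508, by 1.97-fold and 1.68-fold. The other 8 members did not pass the threshold of an adjusted p of 0.05 in edgeR's quasi-likelihood test, and none rose. Over all 12888 genes tested, 0.900% were called lower, 0.489% higher and 1.39% in either direction. The median log2 fold change was -0.15 over the 10 members, with 7 negative and 3 positive, and 0.01 over all genes tested. At an unadjusted p under 0.05 there were 6 members and 1538 genes. In the zinc site, Adamts1 is of the kind with aac or aat, as are 3 members not called, and Adamts5 of the kind with ggc or ggt, as are 5 members not called. Adamts5 and Adamts1 were known to be called when these genes were chosen, so their calls are not independent evidence about the family.

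Adamts5 (gene ID 23794) had 3244 counts in WT, 1969 in DF508 replicate 1 and 1387 in DF508 replicate 2, or 626, 373 and 262 CPM, read counts scaled to library sizes after TMM normalization. Both DF508 libraries lay below WT, 253 CPM or more away, and they differed from each other by 111 CPM. The mean was 317 ± 78.5 CPM in DF508 (SD, n = 2), with a log2 fold change of -0.98 ± 0.17 (SE, adjusted p = 0.0339 in edgeR's quasi-likelihood test). The ratio to WT was 0.596 in replicate 1, with an exact 95% interval for counting error of 0.563 to 0.63, and 0.418 in replicate 2, with an interval of 0.392 to 0.445. The ratio of DF508 replicate 2 to replicate 1 was 0.702 (0.655 to 0.752), an interval that leaves out 1, so counting error does not cover the gap between the DF508 libraries. Because these are bulk libraries, fewer cells that express a gene and less of its RNA per cell cannot be told apart.

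Adamts1 (gene ID 11504), a protease that cuts versican and aggrecan and is known as a gene induced by inflammation, had 1073, 731 and 569 counts, or 207, 138 and 107 CPM. Its groups did not overlap either. WT stood 68.6 CPM above the nearer DF508 library, and the DF508 libraries were 31 CPM apart. The DF508 mean was 123 ± 21.9 CPM (SD, n = 2) and the log2 fold change -0.75 ± 0.14 (SE, adjusted p = 0.045 in edgeR's quasi-likelihood test). As with Adamts5, DF508 replicate 2 was the lower of the pair, at 0.776 of replicate 1 (0.694 to 0.867). Among the other members, Adamts1 had the pair of log2 differences from WT closest to that of Adamts5, at a Euclidean distance of 0.354, and Adamts9 the farthest, at 2.515.

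Markers of other cell types also differed between the libraries. The 16 myeloid markers summed to 108 CPM in WT, 162 in DF508 replicate 1 and 745 in DF508 replicate 2, which also had the lowest Adamts5 and Adamts1. The median of their log2 differences against WT was 0.61 for replicate 1 and 2.71 for replicate 2, and none of the 16 was at 0 in any library or passed the test (10 at an unadjusted p under 0.05, lowest adjusted p = 0.202 in edgeR's quasi-likelihood test). Lyz2, which shares reads, gave 60.6, 84.6 and 400 CPM of these sums. In DF508 replicate 1 the markers Ptprc, Cd52, C1qa and Cd74 were not above WT. The 11 smooth muscle and pericyte markers summed to 1158, 2003 and 1976 CPM. Where 0.489% of all genes tested were called higher, 5 of the 10 tested here rose. These were the contractile genes Acta2 (2.47-fold, sharing reads), Cnn1 (3.56-fold), Tagln (2.02-fold) and Lmod1 (2.04-fold), and Mustn1 (2.94-fold), with adjusted p from 0.00178 for Acta2 to 0.0223 for Lmod1 in edgeR's quasi-likelihood test. The median log2 difference of this list was 0.93 and 0.98 in the DF508 libraries. Of its 10 tested genes 8 had a positive log2 fold change and 2 a negative one, Mcam (-0.67) and Pdgfrb (-0.19). Its pericyte marker Rgs5 had 0 counts in WT, 5 in DF508 replicate 1 and 2 in DF508 replicate 2, too few to be tested. The part of these cell types in the Adamts results was not tested.

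Both calls rest on the model. With 3 libraries the fit has 1 residual degree of freedom, and the single WT library is assumed to vary like the DF508 pair. The spread shared across genes adds a median of 7.72 prior degrees of freedom. Of 12 other settings that give a test, Adamts5 passed in 3 and Adamts1 in 4, with adjusted p from 0.0209 to 0.662 for Adamts5 and from 0.0312 to 0.662 for Adamts1. With counts scaled to library totals alone, the adjusted p was 0.482 for Adamts5 and 0.481 for Adamts1, and no gene of all tested was called (1253 had an unadjusted p under 0.05). With DESeq2's Wald test Adamts1 passed (adjusted p = 0.0441) and Adamts5 did not (adjusted p = 0.419), with an adjusted p given for 3643 genes. The share of all genes called, to be read beside these member counts, was 1.45% with DESeq2 size factors (both members called), 1.64% with a mean of at least 50 counts (Adamts5), 1.47% with limma-voom (both), 1.73% with DESeq2's Wald test and 1.94% with that test on unfiltered genes (Adamts1 in each). It was 0.450% with glmTreat, a test against a fold of 1.2, and 0.712% without genes that share reads, with neither member called.

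**Figure D2:**
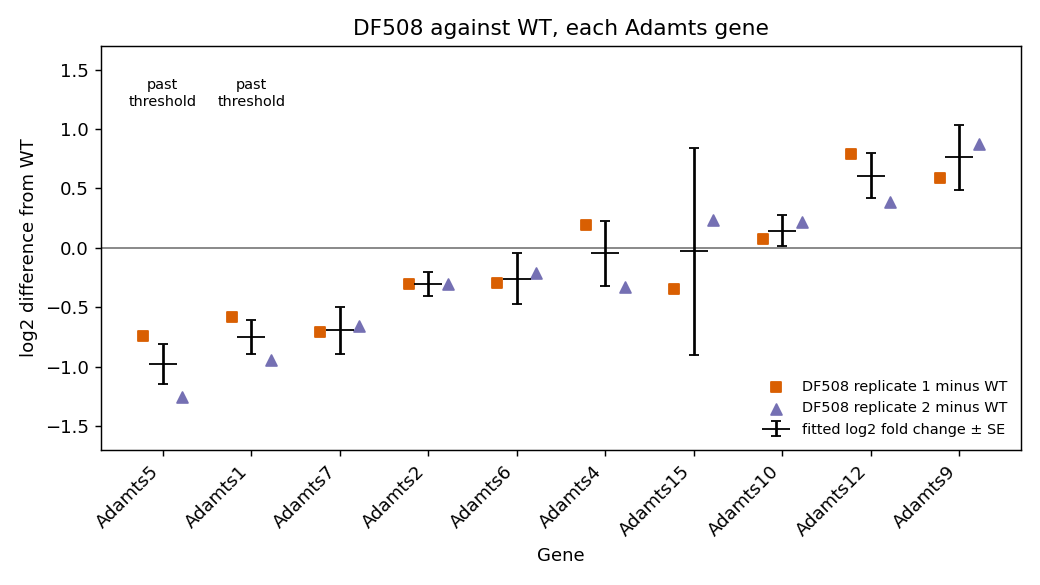
Log2 difference from WT for each Adamts gene: squares for DF508 replicate 1, triangles for DF508 replicate 2, and a horizontal line with error bars for the fitted log2 fold change with its standard error. Adamts5 (-0.98) and Adamts1 (-0.75) are past the threshold, with both DF508 libraries below WT, and Adamts4 and Adamts15 have 1 DF508 library on each side of WT.

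None of the other proteases of the aggrecan and versican group passed. Adamts4 (gene ID 240913) had 83, 97 and 67 counts, or 16, 18.4 and 12.6 CPM. WT lay between the DF508 libraries, and the log2 fold change was -0.05 ± 0.27 (SE, adjusted p = 0.973 in edgeR's quasi-likelihood test). Adamts9 (gene ID 101401), a protease secreted by many cell types in the embryo and the adult, had 45, 70 and 86 counts, or 8.68, 13.2 and 16.2 CPM. Both DF508 libraries were above WT, by at least 4.57 CPM against 2.98 CPM between them, but the log2 fold change of 0.76 ± 0.27 did not pass (adjusted p = 0.296 in edgeR's quasi-likelihood test). The exact counting intervals of its ratio to WT were 1.03 to 2.27 in replicate 1 and 1.29 to 2.74 in replicate 2. For Adamts15 (gene ID 235130) the log2 fold change was -0.03 ± 0.87 (SE), an error that allows a change of either sign at this depth. Whether Adamts5 changed by a different amount from Adamts4 or Adamts9 was not tested.

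Summed over the 10 members, FPKM was 171.75 in WT, 129.76 in DF508 replicate 1 and 108.82 in DF508 replicate 2. Within it, the 5 members of the aggrecan and versican group summed to 121.71, 81.56 and 60.72 FPKM, and the other 5 members to 50.04, 48.2 and 48.1 FPKM. Without Adamts5 and Adamts1 the remaining 8 members summed to 55.93, 55.6 and 54.56 FPKM. The 8 less abundant members together thus held nearly the same level in all 3 libraries, with members above and below WT among them. Adamts5 was 43.6% of the sum in WT, 35.4% in DF508 replicate 1 and 29.7% in DF508 replicate 2, while Adamts2 was 13.3%, 14.2% and 17.2% and Adamts10 7.65%, 11% and 14.5%. These sums were made after the values were known and carry no test.

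**Figure D3:**
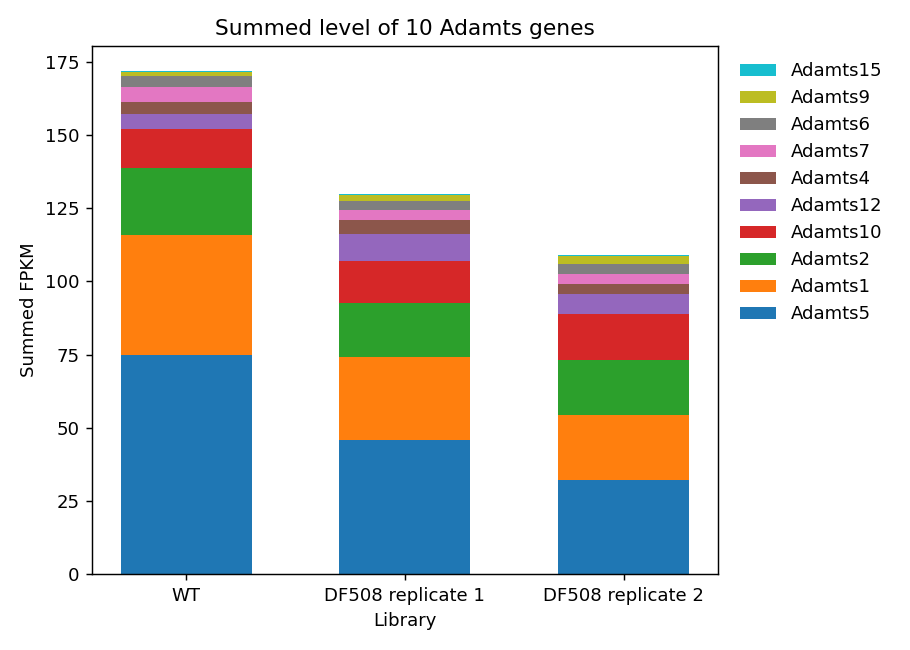
Summed FPKM of the 10 Adamts genes in each library, with each gene a stacked segment. The total runs from 171.75 in WT to 108.82 in DF508 replicate 2, and the segments above Adamts5 and Adamts1 sum to between 54.56 and 55.93 in each library.

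The procollagen protease Adamts2 (gene ID 216725) had 836, 691 and 690 counts after rounding, or 161, 131 and 130 CPM. The DF508 libraries were 0.623 CPM apart and both lay 30.5 CPM or more below WT. With a log2 fold change of -0.31 ± 0.10 (SE, adjusted p = 0.254 in edgeR's quasi-likelihood test) the gene did not pass. Its tables hold 2 RefSeq transcripts, and the length estimated for it was 6833 bases in WT, 7105 in DF508 replicate 1 and 6962 in DF508 replicate 2, so that its FPKM also moves with the mix of transcripts. Its relatives Adamts3 and Adamts14, which act on the same step, did not pass either. Adamts3 had 24.7 CPM in WT, 22.1 in DF508 replicate 1 and 42.6 in DF508 replicate 2, with the DF508 libraries on both sides of WT. Adamts14, which shares reads and is uncertain, had 8.1, 15.3 and 14.2 CPM (log2 fold change 0.86 ± 0.27, adjusted p = 0.21 in edgeR's quasi-likelihood test).

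The Comp-cutting pair stood on opposite sides of WT. Adamts7 (gene ID 108153) had 146, 90 and 94 counts, or 28.2, 17 and 17.7 CPM. Both DF508 libraries were 10.4 CPM or more below WT and 0.698 CPM apart, yet the log2 fold change of -0.70 ± 0.20 did not pass (SE, adjusted p = 0.176 in edgeR's quasi-likelihood test). Adamts12 (gene ID 239337) had 172, 305 and 230 counts, or 33.2, 57.8 and 43.4 CPM. Both DF508 libraries were above WT, by at least 10.2 CPM, but they were 14.3 CPM apart, and the log2 fold change was 0.61 ± 0.19 (SE, adjusted p = 0.216 in edgeR's quasi-likelihood test). Comp itself, one of the genes chosen after its values were seen, had 466, 445 and 677 CPM, with a log2 fold change of 0.27 and no call.

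Neither member of the pair linked to fibrillin microfibrils passed. Adamts6 (gene ID 108154) had 98, 81 and 86 counts, or 18.9, 15.3 and 16.2 CPM, and a log2 fold change of -0.26 ± 0.22 (SE, adjusted p = 0.71 in edgeR's quasi-likelihood test). Its counting intervals against WT, 0.597 to 1.1 in replicate 1 and 0.635 to 1.16 in replicate 2, held 1. Adamts10 (gene ID 224697) had 284, 304 and 337 counts, or 54.8, 57.6 and 63.6 CPM, and a log2 fold change of 0.14 ± 0.13 (SE, adjusted p = 0.728 in edgeR's quasi-likelihood test). WT was 2.76 CPM from the nearer DF508 library of Adamts10, less than the 6.04 CPM between the DF508 libraries.

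By direction alone, 5 of the 10 members were below WT in both DF508 libraries (Adamts1, 2, 5, 6 and 7), where 36.2% of all genes tested were, and 3 were above WT in both (Adamts9, 10 and 12), where 36.3% of all genes tested were. Counts this close to the background in 10 genes are not a result about the members. With DF508 replicate 1 or replicate 2 left out, 6 members were below WT in the DF508 library that was kept. The share of all genes below WT in a single DF508 library was not counted, so that number is not a result about the members either.

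**Figure D4:**
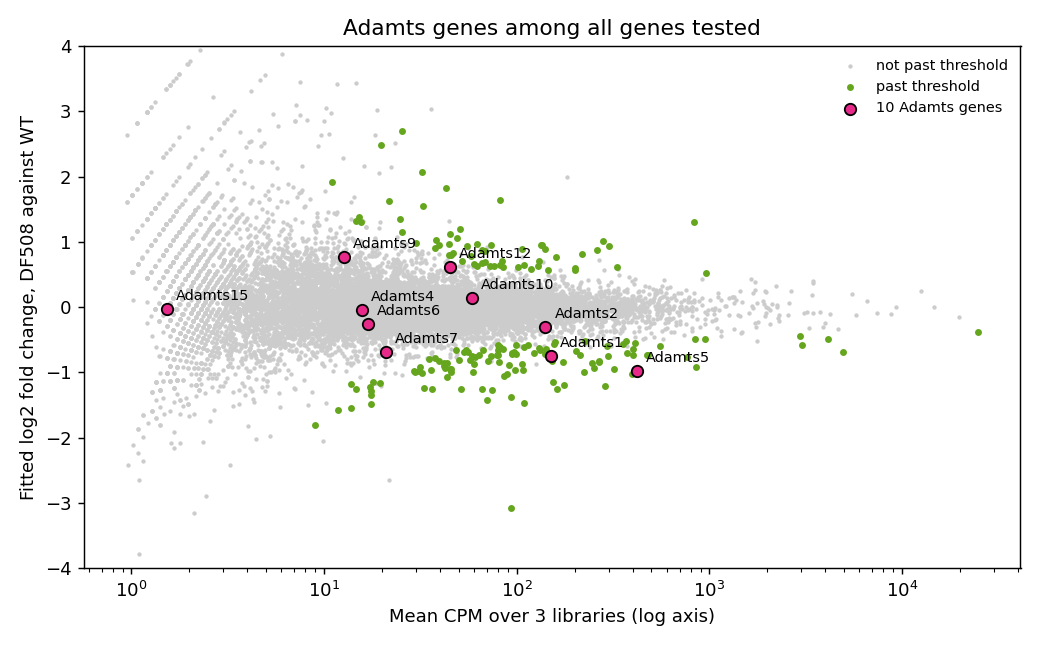
Mean CPM over the 3 libraries (log axis) against the fitted log2 fold change of DF508 against WT for the genes tested; 25 genes beyond 4 on the log2 scale are outside the axis. Adamts5 and Adamts1 lie among the genes past the threshold at -0.98 and -0.75, and the other 8 Adamts genes lie within the cloud of genes that did not pass.

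Adamts1 and Adamts5 are direct neighbours on chromosome 16 among protein-coding genes of the RefSeq gene table (GRCm38.p6). On the far side of Adamts5, N6amt1, a methyltransferase gene that shares reads, had 18.5, 23.9 and 25.9 CPM and did not pass (log2 fold change 0.42, adjusted p = 0.463 in edgeR's quasi-likelihood test). Cyyr1, on the far side of Adamts1, had no row in the tables. The genes beside the other 8 members included none past the threshold, where 1.39% of all genes tested were called. Of these neighbours Rxfp3, Actl9 and Adamts8 had too few counts to be tested. By the pair of log2 differences from WT, the 3 genes of 3951 with a mean of at least 50 CPM that lay closest to Adamts5 over the 3 libraries were Pcdhgc5 (distance 0.031, sharing reads), the chemokine Ccl7 (0.193) and the AP-1 gene Fosb (0.202).

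RefSeq promoters (GRCm38.p6) were at hand for 4 of the 10 members, namely Adamts1, Adamts2, Adamts9 and Adamts12. That of Adamts1 is shown because Adamts1 is the one of these genes past the threshold. It covers the 250 bases before the start of the gene, chr16:85803114-85803363 on the minus strand, with capitals for the matches found.
Adamts1 promoter: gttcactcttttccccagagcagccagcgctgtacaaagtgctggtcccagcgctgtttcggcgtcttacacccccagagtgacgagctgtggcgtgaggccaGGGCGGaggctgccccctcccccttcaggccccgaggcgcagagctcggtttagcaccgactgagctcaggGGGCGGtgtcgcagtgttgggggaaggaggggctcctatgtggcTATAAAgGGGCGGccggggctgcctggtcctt
On both strands 5 motifs were searched. The AP-1 motif was TGANTCA. The CRE was read as TGACGTCA. For RUNX factors the letters were TGTGGT. The capitals above are the GC box, GGGCGG, and the TATA box, TATAAA; no match of these motifs overlaps another. The Adamts1 window held 3 GC boxes, which 32.7% of 32851 promoter windows of this length had at least 1 of, and a TATAAA that begins 32 bases before the start, which 12.4% had. Adamts2 had 5 GC boxes, Adamts9 had 1 and Adamts12 had none of the motifs. AP-1 letters were in none of the 4 windows and in 6.75% of all windows, CRE letters in 1.55% and RUNX letters in 14.0% (none of the 4). A match of letters is a description of the sequence, not a site shown to be used.

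Around the proteases, genes that control or receive their action were counted from lists. Of 12 tested genes for inhibition, activation and clearance none passed (lowest adjusted p = 0.0982 in edgeR's quasi-likelihood test; 2 at an unadjusted p under 0.05). The inhibitors Timp2 and Timp1 had mean levels of 527 and 454 FPKM and log2 fold changes of 0.04 and 0.06. Timp3 and Lrp1 were chosen after their values were seen. Timp3, the main inhibitor of the aggrecanases, had 778, 621 and 576 CPM. Lrp1, the receptor that takes up Adamts4 and Adamts5 from the matrix, had 4483, 3655 and 3568 CPM. Both were below WT in both DF508 libraries, and neither passed (log2 fold change -0.38 with adjusted p = 0.126 for Timp3, which shares reads, and -0.31 with adjusted p = 0.0982 for Lrp1, in edgeR's quasi-likelihood test).

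Among 17 tested proteoglycans and other substrates 1 rose and 2 fell. Of all genes tested 0.489% were called higher and 0.900% lower. The small proteoglycan decorin (Dcn) rose from 741 CPM to 1023 and 1099 CPM in the DF508 libraries, 1.43-fold. Fibronectin (Fn1) fell from 29330 CPM to 22840 and 22080 CPM, 1.31-fold, and the matrix protein Cilp from 3581 to 2525 and 2722 CPM, 1.36-fold. The adjusted p was 0.0417 for Dcn, 0.0207 for Fn1 and 0.0404 for Cilp in edgeR's quasi-likelihood test. With library totals alone no gene was called. The aggrecan gene Acan had no row in the tables and no value is given for it. Versican (Vcan), named after its values were seen, had 328, 494 and 370 CPM and did not pass (log2 fold change 0.40, adjusted p = 0.357 in edgeR's quasi-likelihood test). The median log2 fold change of this list was 0.27.

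None of 10 tested procollagens and processing genes passed (2 at an unadjusted p under 0.05, lowest adjusted p = 0.147 in edgeR's quasi-likelihood test). Col1a1 and Col1a2, whose products Adamts2 trims, had log2 fold changes of 0.24 and 0.09. Of 13 fibrillin microfibril genes elastin (Eln) rose, from 4.82 CPM to 20.3 and 34.1 CPM, and 12 did not pass. The adjusted p of Eln was 0.02225 in edgeR's quasi-likelihood test, and 0.489% of all genes tested were called higher. Of the 9 other Adamts proteases 3 had enough counts to be tested, Adamts3, Adamts14 and Adamts16, and none passed; Adamts18 had no row. None of 5 tested Adamts-like proteins, which resemble the proteases but lack the protease domain, passed, with log2 fold changes of 0.08 for Adamtsl4 and 0.22 for Adamtsl3, the most abundant.

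**Figure D5:**
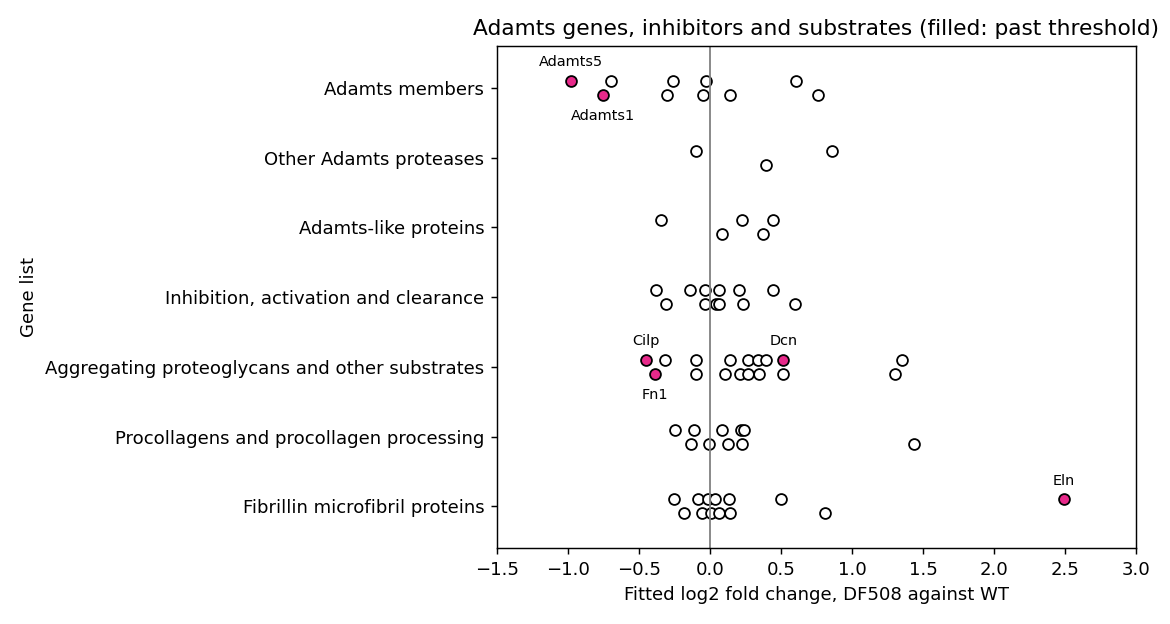
Fitted log2 fold change of DF508 against WT (horizontal axis) for each tested gene of the Adamts members and 6 other lists, filled where past the threshold. Adamts5 and Adamts1 are filled at -0.98 and -0.75, Fn1 and Cilp lie below 0 and Dcn and Eln above 0 among the substrates and microfibril genes.

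The total estimated counts were 5298326, 5241826 and 5246886 in WT and DF508 replicates 1 and 2. The tendon markers Thbs4, Fmod, Tnmd and Mkx were present, and the 14 tendon and fibroblast markers summed to 45440 to 47280 CPM. Thbs4 alone gave 21210, 18560 and 19680 CPM of that sum in WT and DF508 replicates 1 and 2. Scx of the same list was low, at 3.09, 2.08 and 2.45 CPM. Tnmd had 94.7, 108 and 190 CPM and Kera 1.35, 3.79 and 16 CPM, and neither passed. The endothelial markers Pecam1 and Cdh5 and the muscle regulators Myod1 and Myog had no row, and the sums of those lists were at most 19.7 and 6.63 CPM. Other genes of those lists were detected, and none passed. Of the endothelial list, Tek had 14.9, 13.1 and 12.3 CPM and Egfl7 4.245, 2.84 and 2.264 CPM. Of the muscle list, Acta1, which shares reads, had 1.929, 5.112 and 3.774 CPM and Des 0.7717, 1.325 and 1.887 CPM.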

How the data were processed

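Per the submitters' processing notes, reads were handled with Bowtie and RSEM on mm9; versions, the annotation release and the use of strand were not given in the sources used here. The deposited tables, 1 per library, hold per the file headers the expected count (RSEM's estimate of reads per gene, not normalized), the FPKM made by the authors and the gene length. A gene without a row was set to 0. Expected counts were rounded. Symbols came from RefSeq (GRCm38.p6) for 16579 of 16621 IDs (99.7%).

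Genotype was tested with edgeR 4.0.16 (R 4.3.3): filterByExpr, TMM factors, quasi-likelihood test, Benjamini-Hochberg over all 12888 genes, threshold 0.05. The standard error is the fold change over the square root of F. Log2 differences of single libraries used a prior count of 2. With 1 library against 2, an exact permutation test cannot go below p = 0.333 and was not used. Counting intervals are exact binomial at 95%. The labels describe no molecular identifiers, so they cover counting error only. The limit for a gene at 0 is 3 counts, which is 0.566 to 0.579 CPM.

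Genes with a count that is not whole were taken to share reads with another gene or copy. The members, lists and tests were chosen with earlier results of these data known. The genes named are the 10 members, genes of the family and pathway lists past the threshold or else the 2 highest by FPKM, the nearest genes to Adamts5 and the genome neighbours; others are marked, and cell type markers were picked for naming after their values were seen. Alternatives used limma 3.58.1 and DESeq2 1.42.0. Sites and motifs were found with Biopython 1.88.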

Additional observations from a re-analysis of the deposited data

How the results depend on the processing

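The direction of Adamts5 and Adamts1 was negative under every alternative run. All alternatives use the same 3 libraries, in which both DF508 libraries lay below WT for these genes, so the kept sign is not independent evidence. Of the members, 2 were called as reported, with DESeq2 size factors and with limma-voom. There were 0 members called with library totals only, no filter, glmTreat against a fold of 1.2, the fit without genes that share reads, and each of the 3 limma fits on log2(FPKM + 1) or log2(FPKM + 0.1), with 5, 4, 5, 5, 4, 4 and 2 members at an unadjusted p under 0.05. With a mean of at least 50 counts 1 was called (Adamts5), and with DESeq2's Wald test, with or without the edgeR filter, 1 (Adamts1). Genes called over the whole table were 179 as reported, 58 with glmTreat and 71 without genes that share reads. With DESeq2's Wald test they were 63 with the filter and 66 without it. There were 0 with library totals, no filter and the 3 FPKM fits. At an unadjusted p under 0.05, all genes numbered 1253 of 12888 with library totals and 1123 of 16581 with no filter. They numbered 860 of 12888 with glmTreat and 1185 of 9966 without shared reads. On FPKM they numbered 1145 and 1159 of 12230, and 1615 of 16621. The fit without shared reads tested 8 members, and the FPKM fits tested 9, 9 and 10. Where its call was lost, the log2 fold change of Adamts5 was -0.94 (library totals), -0.98 (no filter, glmTreat, no shared reads, both DESeq2 fits), and -0.94, -0.96 and -0.94 on FPKM. That of Adamts1 was -0.71 (library totals), -0.76 (no filter), -0.75 (50 counts, glmTreat, no shared reads), and -0.70, -0.72 and -0.70 on FPKM. glmTreat asks for a larger change. The fit without shared reads tested 9966 genes, and that with a mean of at least 50 counts, which kept Adamts5, tested 9580. The cause of the lost calls was not tested for any setting. Leaving out DF508 replicate 1 or 2 gave -1.26 and -0.75 for Adamts5 and -0.94 and -0.58 for Adamts1, values with no test since no residual degree of freedom is left. Adamts15 turned to 0.01 with library totals and 0.0038 on log2(FPKM + 1) without a filter. The other 76 of 78 tested values of the 8 members not called kept direction and side of the threshold. With a DF508 library left out, a value with no test, 2 of 16 turned sign: Adamts4 to 0.19 without DF508 replicate 2 and Adamts15 to 0.24 without DF508 replicate 1. The fit without genes that share reads and DESeq2 without the edgeR filter were chosen after seeing the data. Depth limits Adamts15 most, with 6 to 10 counts. No paired analysis was possible because WT has a single library.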
